A study of Mus musculus with 1536 samples.

Results

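The levels of 10 imprinted genes were followed in single serotonin neurons of the mouse raphe, namely Dlk1, Meg3, Asb4, Mkrn3, Ndn, Magel2, Peg3, Snrpn, Cdkn1c and Grb10. They were taken by name, 10 of the 53263 genes in the deposited table, and not by their values. The cells came from Sert-Cre;Ai14 mice on a C57BL/6J background, 40 to 45 days old and of both sexes, in which Cre made from the serotonin transporter gene turns on the red protein tdTomato, and every group carried these same alleles with no treatment. One dissection took the principal dorsal raphe (pDR) alone and gave 290 of the 999 cells, on 5 plates. The other gave 709 cells on 11 plates, is labelled as the dorsal raphe (DR) as a whole, and by the study's methods also held the median raphe (MR), so it is called the DR and MR dissection. Each sorted cell was made into 1 full-length Smart-seq2 library and counted as CPM, the reads of a gene after each cell is brought to a common total, with a median of 827283 reads per cell (96834 to 2780443). The median was 755926 reads in the pDR dissection and 869546 in the other. The paper reports several brains for each dissection. The labels give the plate of a cell and not its animal, so cells cannot be assigned to brains. Each dissection is therefore treated as 1 sample. Differences between plates cannot be told apart from differences between animals, and the values of the plates and their SD are given with no p-value. Reads carry no molecular identifiers, and confidence intervals on shares of cells (95%, Clopper-Pearson) hold counting error only.

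Imprinted genes are expressed from the copy of 1 parent, and DNA methylation laid down in the egg or the sperm sets which copy is active. They lie in clusters, each under an imprinting control region. Many are strongly expressed in the brain, and loss of paternal expression of the cluster that holds Snrpn, Ndn, Magel2 and Mkrn3 is the cause of Prader-Willi syndrome in people. The deposited values do not separate the parental copies, so only the total RNA of each gene is described here.

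The serotonin identity of the cells was checked first. Tph2, the enzyme of serotonin synthesis, and Fev, a transcription factor of serotonin neurons, each had a read in all 999 cells, Slc6a4 in 997 and Slc18a2 in 998. A read of Tph2 was required of each cell and the sort used Slc6a4, so these shares are not independent of how cells were chosen. Of 6 microglial genes the most widely detected had a read in 1.40% of cells, and of 5 endothelial genes in 5.71%, with Kdr at 0. Of 6 astrocyte genes, Aldoc had a mean of 915 CPM and a read in 99.3% of cells, while Aqp4, Gfap, Aldh1l1, Slc1a3 and Gja1 each had a read in between 2.10% and 5.11%. Of 6 oligodendrocyte genes Mbp was the most abundant, with a mean of 115 CPM. In 9 cells the oligodendrocyte genes summed to 1000 CPM or more, and without these 9 cells the same imprinted genes passed the fold in each comparison below.

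Most cells held reads of 6 of the 10 genes. Snrpn, which encodes a protein of the splicing machinery, had a read in all 999 cells. Meg3, a long noncoding RNA, and Peg3, a zinc finger protein, each had one in 998, Grb10, an adaptor of the insulin receptor, in 992, and Ndn, the MAGE family protein necdin, in 970, or 97.1% (95.9 to 98.0%). Magel2, a MAGE family protein of endosomal sorting, had a read in 80.5% (77.9 to 82.9%). The other genes were found in a minority of cells. Dlk1, a transmembrane protein related to the Notch ligands, had a read in 46.9% (43.8 to 50.1%), Asb4, the substrate-binding part of a ubiquitin ligase, in 29.4% (26.6 to 32.4%), and Mkrn3, a RING-type ubiquitin ligase, in 8.61% (6.94 to 10.5%). Cdkn1c, the cell cycle inhibitor p57, had one in 33 cells, or 3.30% (2.28 to 4.61%), at a mean of 0.333 CPM. With every cell thinned to 250000 reads, which left out 9 cells, the shares were 73.4% for Magel2, 42.0% for Dlk1, 28.3% for Asb4 and 8.08% for Mkrn3.

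Cells with a read of Asb4 had a median of 119 CPM, from 100.5 reads, and the highest cell had 2656 CPM. Cells with a read of Mkrn3 had a median of 30.0 CPM from 26.5 reads, and cells with a read of Dlk1 a median of 93.8 CPM from 63 reads. Cells with a read of Magel2 had a median of 17.4 CPM from 13 reads. These medians are not scaled to gene length and are not ranked against each other.

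**Figure D1:**
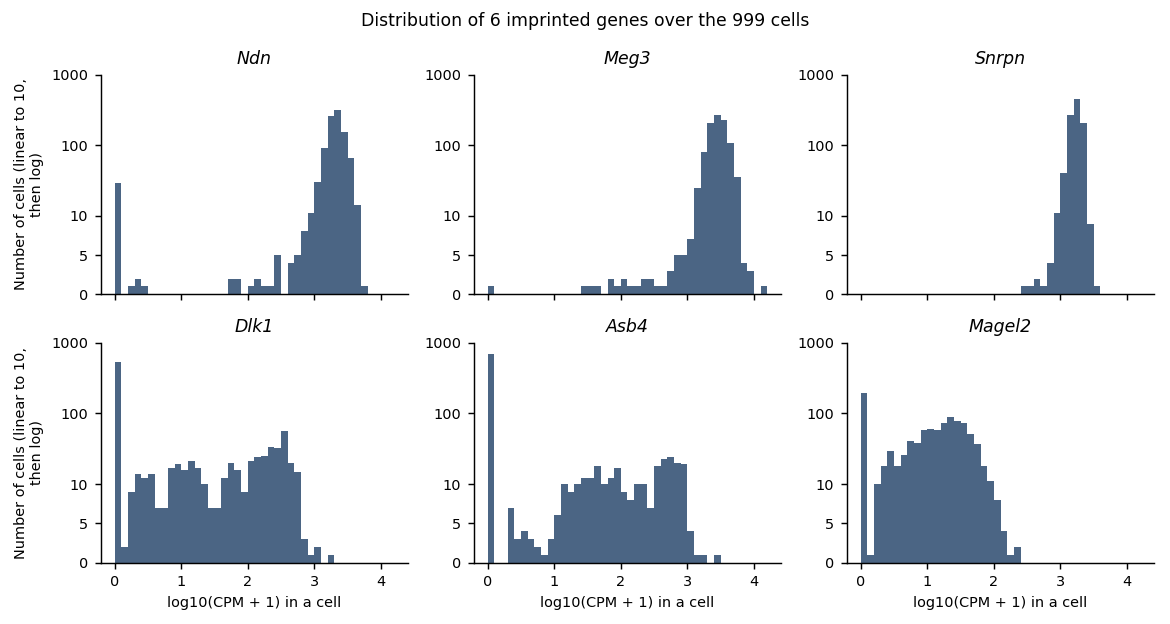
Number of cells (linear to 10, then a log scale) at each level, as log10(CPM + 1), of 6 imprinted genes over the 999 cells. Snrpn and Meg3 form 1 peak, Dlk1 and Asb4 spread from 0 to over 1000 CPM with most cells at 0, and Ndn has its peak near 2070 CPM and a separate column of 29 cells at 0.

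On GRCm38, by GENCODE M21, the Prader-Willi cluster of chromosome 7 holds Snrpn (chr7:59982495-60140219, minus strand), Ndn (chr7:62346569-62350262, plus), Magel2 (chr7:62377010-62381640, plus) and Mkrn3 (chr7:62417593-62420139, minus), and the last 3 lie within 73571 bases. Peg3 (chr7:6703892-6730431, minus) and Cdkn1c (chr7:143458339-143461050, minus) lie elsewhere on that chromosome. Dlk1 (chr12:109452823-109463336, plus) ends 77664 bases before Meg3 (chr12:109541001-109571726, plus) in another cluster, and Asb4 (chr6:5383386-5433022, plus) and Grb10 (chr11:11930508-12038683, minus) are each in a cluster of their own here.

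Levels of the 10 genes were ranked per kilobase of exon, as CPM per kilobase averaged over the 16 plates. The order began with Snrpn at 792 ± 107 (SD, n = 16 plates) and Ndn at 553 ± 93.8, and Snrpn was above Ndn on all 16 plates. Peg3 at 166 ± 15.2 and Meg3 at 161 ± 29.0 followed, and Peg3 was the higher of these on 9 of 16 plates, so they did not differ beyond their spread. Asb4 at 20.7 ± 19.3, Dlk1 at 13.5 ± 7.95 and Grb10 at 11.5 ± 2.72 were also within each other's spread over all plates. The dissections differed here, since the pDR plates had Asb4 at 45.5 ± 14.7, Dlk1 at 22.9 ± 6.09 and Grb10 at 14.8 ± 2.23 CPM per kilobase (n = 5), and the others had them at 9.37 ± 4.98, 9.21 ± 4.01 and 10.00 ± 1.05 (n = 11). Grb10 was above Magel2 (4.02 ± 1.83) on all 16 plates, and Mkrn3 (1.21 ± 1.23) and Cdkn1c (0.149 ± 0.115) had the lowest means. Magel2 was above Mkrn3 on 13 of 16 plates, and on the pDR plates alone they were at 2.41 ± 0.877 and 2.61 ± 1.35 CPM per kilobase, within each other's spread. The counting ignored strand. On this annotation 34.1% of the exon bases of Snrpn are shared with other genes, among them Snurf, which is listed at 0 in every cell, and 30.7% of those of Cdkn1c with a gene on the opposite strand, so these values are uncertain. Ndn was given 3.694 kilobases of exon, but its start in RefSeq lies inside that gene. A shorter length would raise its value per kilobase, so its order against Snrpn is uncertain too.

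The first question was how the genes differed between the dissections. The comparisons took in the 12834 genes with a mean of at least 1 CPM, among them 9 of the 10 imprinted genes and not Cdkn1c. A gene was called higher or lower where the log2 ratio of the mean of plate means plus 1 CPM was at least 1 or at most -1. In the pDR, 3 imprinted genes were called higher, where 3.39% of all tested genes were, and 0 were called lower, where 2.12% were. The median log2 ratio of the 9 genes was -0.02.

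Asb4 measured 221, 224, 81.8, 180 and 188 CPM on the 5 pDR plates. On the 11 DR and MR plates it lay between 7.23 and 70.6 CPM, with a median of 37.2. Every pDR plate was therefore above every other plate, which 4.18% of tested genes showed in that direction, and the means were 179 ± 57.7 against 36.8 ± 19.6 CPM, a log2 ratio of 2.25. Mkrn3 measured 9.77, 10.9, 3.84, 3.60 and 5.12 CPM on the pDR plates and between 0 and 2.62 CPM on the others, again without overlap (log2 ratio 1.64). Its call was lost with a pseudocount of 10 CPM and with mean ln(CPM+1). Dlk1 measured 86.3, 156, 110, 123 and 172 CPM on the pDR plates and between 16.1 and 87.9 CPM on the others. Its means were 129 ± 34.5 and 52.1 ± 22.7 CPM (log2 ratio 1.29), and the lowest pDR plate fell just below the highest of the other plates. Grb10 did not reach the fold, with 135 ± 20.2 against 90.9 ± 9.52 CPM (log2 ratio 0.56), but its pDR plates, from 112 to 160 CPM, were all above the others, from 73.2 to 102 CPM.

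Ndn and Snrpn were lower in the pDR by less than the fold and without overlap, which 4.92% of tested genes showed in that direction. Ndn measured 1884, 1812, 1425, 1414 and 1484 CPM on the pDR plates and between 2045 and 2470 CPM on the others (log2 ratio -0.48). Snrpn measured 1519, 1486, 1377, 1299 and 1417 CPM on the pDR plates and between 1582 and 2039 CPM on the others (log2 ratio -0.38). Magel2 averaged 11.2 ± 4.06 against 22.0 ± 7.80 CPM (log2 ratio -0.92), with overlapping plates. Meg3 varied within the pDR dissection, from 2123 to 4041 CPM, against 2363 to 3645 CPM on the other plates (log2 ratio -0.04). Peg3 was at 2186 ± 163 and 2219 ± 225 CPM (log2 ratio -0.02). The median number of reads per cell ranged from 632724 to 1536580 over the pDR plates and from 528517 to 1253500 over the others.

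**Figure D2:**
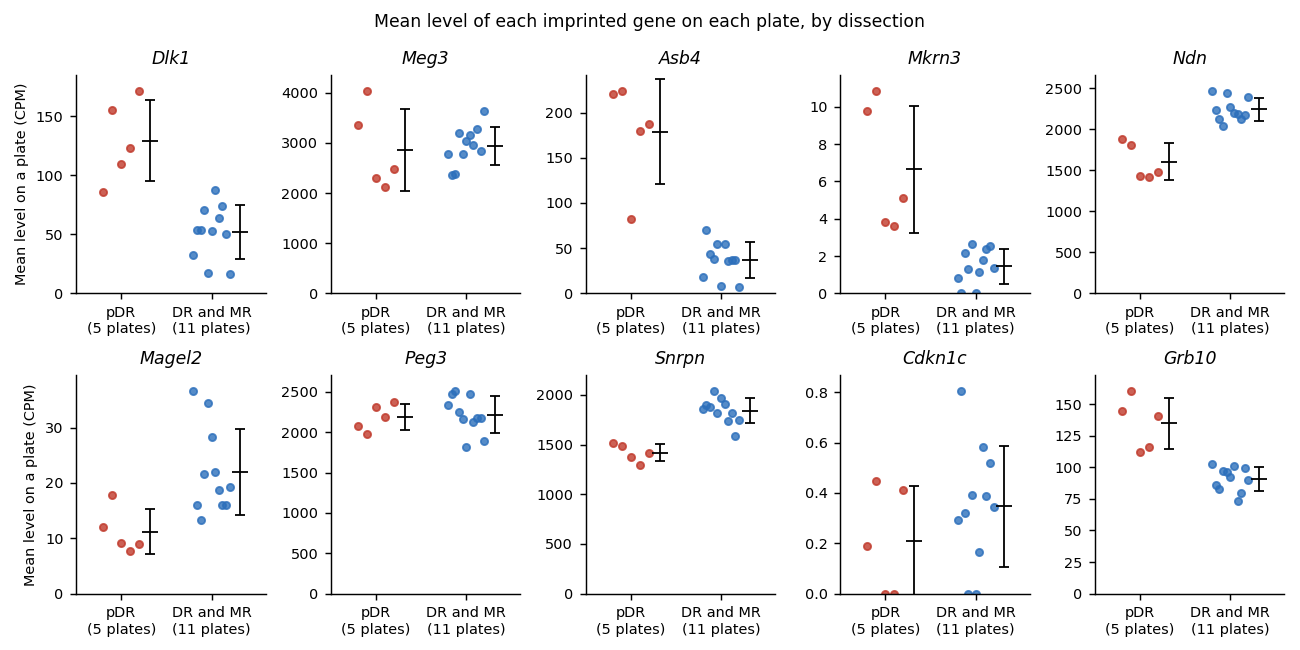
Mean CPM of each of the 10 imprinted genes on each of the 5 pDR plates (red) and the 11 DR and MR plates (blue), 1 point per plate, with the mean and SD of each dissection in black. The 2 sets of points do not overlap for Asb4, Mkrn3 and Grb10, which are higher in the pDR, nor for Ndn and Snrpn, which are lower.

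The dissections held different kinds of cells, and this was measured with 5 markers, each called from at least 1 read. Gad1 or Gad2, the enzymes of GABA synthesis, were found in 63.1% of pDR cells and 23.1% of the others, and Trh, a neuropeptide, in 33.8% and 5.64%. Slc17a8, the glutamate transporter Vglut3, was found in 45.2% and 73.1%. The transcription factors Zeb2 and Irx2 were found in 1.03% and 3.45% of pDR cells and in 20.7% and 21.7% of the others. The dissections were therefore also compared among cells of the same kind, a choice made after the values were seen. Among cells with Slc17a8 and none of the other markers, on plates with at least 5 such cells, Asb4 was at 7.78 ± 5.79 CPM in the pDR (n = 5 plates) and 5.36 ± 6.55 CPM in the DR and MR dissection (n = 10 plates), a log2 ratio of 0.46 with overlap. In Gad positive cells it was at 277 ± 79.4 and 133 ± 80.4 CPM (n = 5 and 11), a log2 ratio of 1.05, also with overlap. Mkrn3 was at 0.181 ± 0.279 and 1.07 ± 1.47 CPM in the former cells and at 9.88 ± 4.53 and 3.19 ± 4.69 CPM in Gad positive cells (log2 ratio 1.38), with overlap. Dlk1 was at 133 ± 74.0 against 55.5 ± 28.9 CPM in cells with Slc17a8 alone (log2 ratio 1.24), but at 97.6 ± 35.6 against 64.3 ± 43.1 CPM in Gad positive cells (log2 ratio 0.59), with overlap in both. Among all cells without Zeb2 or Irx2 reads its log2 ratio was 0.59. Ndn was at 1617 ± 245 against 2091 ± 89.6 CPM in cells with Slc17a8 alone, and its pDR plates, up to 1913 CPM, were again below all the others, from 1944 CPM. In Gad positive cells its plates overlapped, with pDR plate 12 at 1856 CPM and DR and MR plate 56 at 1782 CPM. Snrpn was at 1533 ± 88.6 against 1855 ± 130 CPM in the same cells, with overlap, and in Gad positive cells at 1366 ± 121 against 1769 ± 122 CPM without overlap. Grb10 was at 141 ± 24.9 against 88.3 ± 13.6 CPM in Gad positive cells, without overlap, and at 119 ± 23.2 against 91.1 ± 14.2 CPM in cells with Slc17a8 alone, with overlap. Dissection, animal and plate cannot be told apart in these differences.

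The second question was which imprinted genes go with each marker. Positive cells were compared with the other cells of the same plate, on plates with at least 5 of each, as the log2 ratio of mean CPM plus 1, averaged over plates. The 5 comparisons use the same cells and their positive sets overlap, since 126 of the 138 Trh positive cells also had Gad reads and 121 of the 150 Zeb2 positive cells also had Slc17a8 reads.

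Asb4 and Mkrn3 were higher in Gad positive cells, 2 of the 9 genes where 0.748% of all tested genes were called higher, and 0 of the 9 were called lower where 0.468% were. Asb4 averaged 178 CPM in Gad positive cells (median plate 172, from 0 to 341) and 11.0 CPM in the other cells (median plate 10.3, from 0 to 25.9). The log2 ratio was 3.76 ± 2.23 (SD, n = 16 plates), and 15 of 16 plates had it above 0. On the exception, plate 67, none of the 7 Gad positive cells had a read of Asb4, and 3 of them also had reads of Zeb2. Zeb2 reads were also found in 13 of 18 Gad positive cells on plate 48 and 7 of 15 on plate 55. The log2 ratio on those plates was 2.04 and 3.73. Asb4 was detected in 56.8% (51.4 to 62.1%) of Gad positive cells and 14.9% (12.2 to 17.8%) of the others, at median depths of 796097 and 847035 reads. Mkrn3 averaged 5.28 and 1.06 CPM (log2 ratio 1.07 ± 1.92) and was higher on 9 of 16 plates, so it passed the fold with a spread over plates larger than the difference. It did not pass on DR and MR plates alone (0.45), among cells without Trh reads (0.52), or in 7 of 16 runs that each left out 1 plate. Snrpn was lower in Gad positive cells on all 16 plates, but only by a log2 ratio of 0.10 (1643 against 1751 CPM). Dlk1, at 74.7 and 88.9 CPM, was higher on 8 of 16 plates.

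Trh positive cells had more Asb4 and Mkrn3 than the other cells of their plates. Their mean of Dlk1 was lower, but a larger share of them had a Dlk1 read. Of the 9 genes, 2 were called higher, against 1.32% of all tested genes, and 1 lower, against 2.95%. Asb4 averaged 383 CPM in Trh positive cells (198 to 527 over 10 plates) and 39.7 CPM in the other cells (4.50 to 120), so that plates did not overlap, and the log2 ratio was 3.78 ± 1.37. It was detected in 88.8% (81.9 to 93.7%) of Trh positive and 24.8% (21.1 to 28.7%) of other cells. Mkrn3 averaged 14.9 CPM (2.07 to 27.3) against 2.14 CPM (0 to 5.10), and was higher on 10 of 10 plates (log2 ratio 2.24 ± 1.43). Its call was lost with a pseudocount of 10 CPM and with positivity from 10 CPM. Dlk1 averaged 34.5 CPM against 113 CPM and was lower on 10 of 10 plates (log2 ratio -2.24 ± 1.86), although a read of Dlk1 was found in 68.8% of Trh positive and 49.7% of other cells. Because the share goes against the level, no order is read from it, and Dlk1 did not pass the fold with all plates pooled (log2 ratio -0.69) or with mean ln(CPM+1) (-0.80). Within Gad positive cells alone, on 6 plates, those with Trh again had more Asb4 (426 against 96.2 CPM, 6 of 6 plates) and more Mkrn3 (12.2 against 5.19 CPM, 6 of 6). Their mean of Dlk1 was lower (38.8 against 128 CPM, lower on 6 of 6). Over all Gad positive cells a Dlk1 read was found in 69.0% of those with Trh and 49.8% of those without. Again no order is read from this. The astrocyte list was higher in Trh positive cells on 10 of 10 plates (1437 against 910 CPM) and in Gad positive cells on 14 of 16 (1139 against 734 CPM), and nearly all of it is Aldoc, while the other 5 genes have means of under 2 CPM. The oligodendrocyte list averaged 375 CPM in Gad positive and 91.0 CPM in other cells but was higher in the positive cells on only 5 of 16 plates. Its means rest largely on 1 cell of plate 55, at 77749 CPM. Over all cells the list averaged 164 CPM with that cell and 85.9 CPM without it. The part of this list in the result was not tested beyond leaving out the 9 cells above.

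The starts of the genes that set these cells apart are shown from RefSeq, for comparison with Ndn, which nearly every cell expressed. Each line runs from 250 bases before to 50 after an annotated start on GRCm38.p6, on the strand of the gene, and capitals mark the CG dinucleotides, the bases where imprinting methylation is laid. Asb4 is at chr6:5383136-5383435 on the plus strand, Dlk1 at chr12:109452573-109452872 on the plus strand, Mkrn3 at chr7:62420104-62420403 on the minus strand and Ndn at chr7:62348027-62348326 on the plus strand, a start that lies inside the longer GENCODE gene.
Asb4: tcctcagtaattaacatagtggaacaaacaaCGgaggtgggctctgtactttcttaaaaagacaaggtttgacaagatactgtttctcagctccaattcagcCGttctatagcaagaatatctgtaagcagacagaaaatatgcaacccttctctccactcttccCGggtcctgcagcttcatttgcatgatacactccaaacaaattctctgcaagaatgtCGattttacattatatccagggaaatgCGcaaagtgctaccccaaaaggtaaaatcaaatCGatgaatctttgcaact
Dlk1: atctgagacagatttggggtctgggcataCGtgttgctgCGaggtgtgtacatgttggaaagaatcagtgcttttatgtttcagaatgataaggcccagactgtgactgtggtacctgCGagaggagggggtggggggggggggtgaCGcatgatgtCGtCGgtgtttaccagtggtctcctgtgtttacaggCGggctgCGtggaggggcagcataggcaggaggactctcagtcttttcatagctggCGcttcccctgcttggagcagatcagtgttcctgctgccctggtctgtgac
Mkrn3: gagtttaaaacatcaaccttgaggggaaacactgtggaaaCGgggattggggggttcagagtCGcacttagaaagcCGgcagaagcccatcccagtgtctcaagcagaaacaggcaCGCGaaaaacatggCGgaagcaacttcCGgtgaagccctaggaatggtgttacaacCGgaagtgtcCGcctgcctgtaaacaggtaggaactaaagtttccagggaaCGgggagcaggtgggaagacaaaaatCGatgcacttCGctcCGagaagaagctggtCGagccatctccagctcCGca
Ndn: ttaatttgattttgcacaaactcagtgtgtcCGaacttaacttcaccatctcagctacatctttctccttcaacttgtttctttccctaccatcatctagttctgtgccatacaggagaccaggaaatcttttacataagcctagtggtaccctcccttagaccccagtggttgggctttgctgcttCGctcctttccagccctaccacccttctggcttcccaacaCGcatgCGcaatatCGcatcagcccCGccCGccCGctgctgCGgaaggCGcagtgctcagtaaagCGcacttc
These windows hold 6, 9, 15 and 11 CG dinucleotides in that order, and at least as many were found in 56.4%, 45.8%, 34.6% and 41.4% of the 32851 windows of the same length in the RefSeq table, whose median is 7. The table held 9 of the 10 genes, with 15 starts holding between 1 CG dinucleotide at a start of Meg3 and 45 at a start of Grb10. Another start of Asb4, at chr6:5390160-5390459 with 8 CG dinucleotides, is not printed, and which start these cells used was not tested. The count is a description of the sequence, and methylation was not measured.

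Slc17a8 positive cells differed the other way from Gad positive cells, with which they share a minority of cells (136 cells had both). None of the 9 genes was called higher, against 0.725% of all tested genes, and Asb4 and Mkrn3 were called lower, against 0.413%. Asb4 averaged 38.6 CPM in positive and 148 CPM in other cells and was lower on 15 of 16 plates (log2 ratio -2.82 ± 2.04). It was detected in 15.7% and 54.9% of them, although positive cells were the more deeply sequenced, at medians of 867515 and 768896 reads. Mkrn3 averaged 1.06 and 5.38 CPM (log2 ratio -1.20 ± 1.74, lower on 11 of 16 plates and higher on 3). It did not pass the fold on DR and MR plates alone (-0.60), with a pseudocount of 10 CPM (-0.40) or with mean ln(CPM+1) (-0.42). Dlk1 averaged 65.6 and 99.1 CPM (log2 ratio -0.80 ± 0.86) and did not reach the fold. The astrocyte list was lower in Slc17a8 positive cells on 16 of 16 plates (779 against 1096 CPM), and its part in the result was not tested.

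Zeb2 positive cells, compared on the 11 DR and MR plates only, had less Dlk1 and Asb4 and more Magel2 and Ndn. Of the 9 genes, 1 was called higher, against 2.03% of all tested genes, and 2 lower, against 6.35%. Dlk1 averaged 6.82 CPM in them (0 to 29.9 over plates) and 64.3 CPM in other cells (20.9 to 100), and was lower on 11 of 11 plates (log2 ratio -4.12 ± 1.93). Asb4 averaged 2.08 and 46.5 CPM (log2 ratio -4.44 ± 1.41), was lower on 11 of 11 plates, and had no read in any Zeb2 positive cell of 6 of them. Magel2 averaged 36.6 CPM (22.3 to 61.0) in positive and 16.7 CPM (11.5 to 21.6) in other cells. Its plates did not overlap, and the log2 ratio of 1.06 ± 0.39 was above 0 on 11 of 11. Magel2 did not pass the fold with a pseudocount of 10 CPM (0.78). Its share was 95.9% (91.3 to 98.5%) of positive and 80.6% (77.1 to 83.8%) of other cells, and 90.9% and 73.8% after thinning. Ndn, which lies beside Magel2 on chromosome 7, averaged 2693 and 2090 CPM and was also higher on 11 of 11 plates, but by a log2 ratio of 0.35 ± 0.21 and with overlap. Peg3 was lower by 0.24 on the log2 scale (1992 against 2327 CPM, lower on 9 of 11 plates). The astrocyte list was lower in Zeb2 positive cells on all 11 plates (364 against 933 CPM), and its part in the result was not tested.

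Irx2 positive cells also had less Asb4 and Dlk1, while Magel2 was at nearly the same mean in both kinds of cell. None of the 9 genes was called higher, against 0.475% of all tested genes, and 3 were called lower, against 1.91%. Asb4 averaged 1.59 CPM in them (0 to 6.19 over 12 plates) and 62.9 CPM in other cells (9.97 to 241), without overlap (log2 ratio -4.52 ± 1.29). Dlk1 averaged 26.3 and 70.8 CPM (log2 ratio -1.86 ± 1.62) and was lower on 11 of 12 plates, and a read was found in 16.9% of positive and 48.1% of other cells. On the single pDR plate compared, it was at 123 and 158 CPM (log2 ratio -0.36). Mkrn3 averaged 0.309 and 2.53 CPM (log2 ratio -1.24 ± 1.47), and only 2 of 160 Irx2 positive cells on these plates had a read. Its call was lost with a pseudocount of 10 CPM, with positivity from 10 CPM and with mean ln(CPM+1). Magel2 was at 21.1 and 21.7 CPM (log2 ratio 0.01 ± 0.55). Peg3 was higher on 12 of 12 plates by a log2 ratio of 0.18 ± 0.08 (2425 against 2135 CPM), the opposite direction from Zeb2 positive cells, with which they share 5 cells and many of the cells they are compared with. The difference between the 2 markers was not tested.

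**Figure D3:**
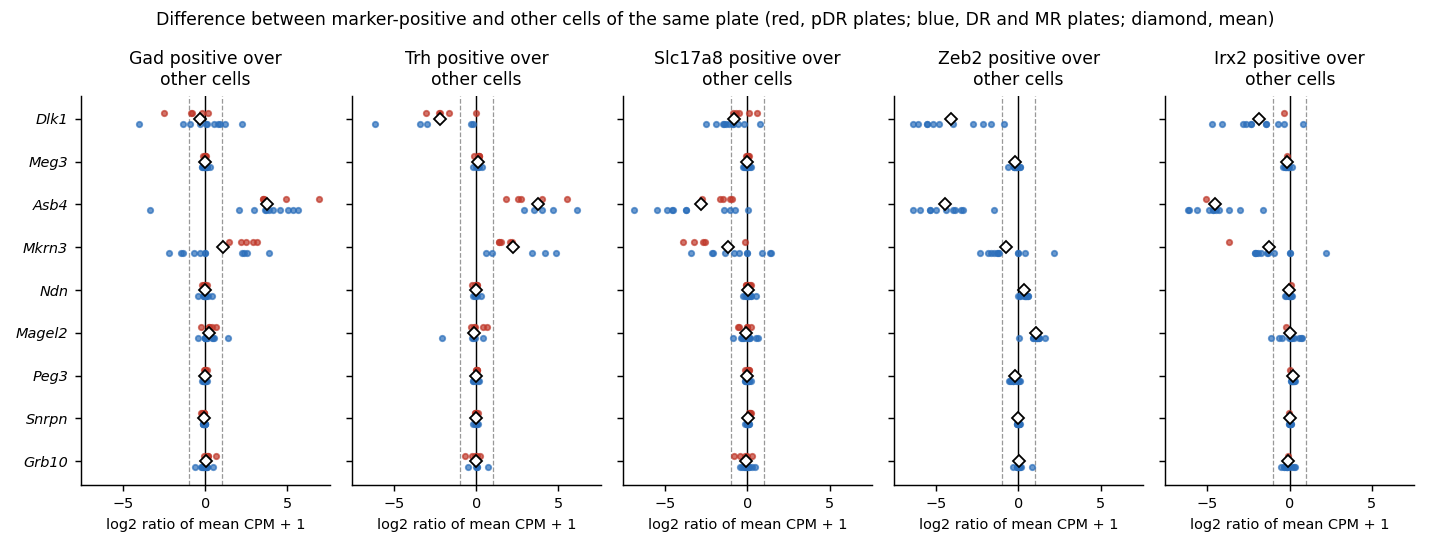
Log2 ratio of mean CPM + 1 between marker positive and other cells of the same plate, for 9 imprinted genes and 5 markers, 1 point per plate (red, pDR; blue, DR and MR) with the mean as a diamond and dashed lines at -1 and 1. The mean of Asb4 lies right of the lines for Gad and Trh and left of them for Slc17a8, Zeb2 and Irx2, with 1 plate at -3.38 for Gad and 1 at 0.05 for Slc17a8, while Meg3, Peg3 and Snrpn stay near 0 for every marker.

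Meg3, Peg3, Snrpn, Ndn and Grb10 passed the fold in none of the 5 comparisons, and the largest mean log2 ratio among these genes was that of Ndn in Zeb2 positive cells. To compare the levels by kind of cell, each cell was put in 1 of 7 groups, in the order Zeb2, Irx2, Trh, Gad with Slc17a8, Gad only, Slc17a8 only and none of the markers, an order chosen after the values were seen. In the pDR dissection Asb4 was at 433 ± 54.3 CPM in the Trh group (n = 5 plates), 118 ± 86.1 CPM with Gad only (n = 4) and 7.78 ± 5.79 CPM with Slc17a8 only (n = 5), and it was at 149 ± 103 CPM with both Gad and Slc17a8 (n = 4). In the DR and MR dissection the same groups had 292 ± 133 CPM (n = 2), 142 ± 28.1 CPM (n = 2) and 5.36 ± 6.55 CPM (n = 10), cells with both Gad and Slc17a8 had 14.5 ± 17.8 CPM (n = 3), with plates that overlap those of the pDR, and cells with Zeb2 or Irx2 had 2.08 ± 4.25 and 1.20 ± 1.51 CPM (n = 11 each). These values use only plates with at least 5 cells of the group. Over all cells of the DR and MR dissection, Asb4 averaged 426 CPM in 35 cells of the Trh group, close to the 441 CPM of 97 such pDR cells, 272 CPM in 30 cells with Gad only, and 53.0 CPM in 36 cells with both Gad and Slc17a8. Dlk1 was high in cells with Gad only, at 222 ± 53.6 CPM in the DR and MR dissection (n = 2 plates) and 178 ± 45.3 CPM in the pDR (n = 4), and in cells with none of the markers, at 181 ± 26.8 CPM (n = 6) and 272 ± 83.8 CPM (n = 2). On these few plates the groups did not differ beyond their spread in either dissection. Over all pDR cells Dlk1 averaged 349 CPM in 19 cells with none of the markers and 177 CPM in 51 with Gad only. Over all cells of the other dissection it averaged 182 CPM in 56 and 168 CPM in 30 such cells. It was at 55.5 ± 28.9 and 133 ± 74.0 CPM with Slc17a8 only (n = 10 and 5) and at 47.1 ± 23.2 CPM in the Trh group of the pDR (n = 5). In the DR and MR dissection it was also low in cells with Irx2 (15.8 ± 11.3 CPM) or Zeb2 (6.82 ± 10.1 CPM). Magel2 was at 36.6 ± 11.1 CPM in the Zeb2 group, 22.3 ± 6.54 CPM in the Irx2 group and between 10.7 and 15.4 CPM in the other groups of that dissection. Over all its cells Magel2 averaged 41.0 CPM in the Zeb2 group, 22.1 CPM in the Irx2 group and 21.6 CPM in 36 cells with both Gad and Slc17a8. The remaining groups lay between 12.3 and 14.7 CPM.

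**Figure D4:**
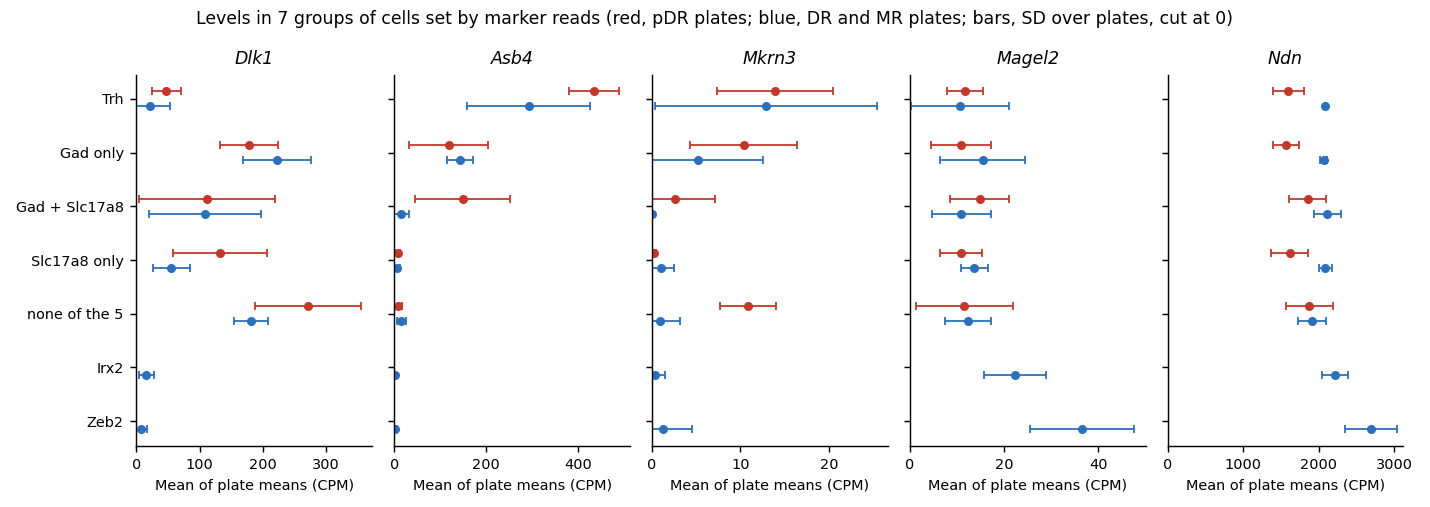
Mean of plate means, in CPM, of 5 imprinted genes in 7 groups of cells set by marker reads, for the pDR plates (red) and the DR and MR plates (blue), on plates with at least 5 cells of the group; bars are the SD over plates, drawn no lower than 0. Asb4 is highest in the Trh group in both dissections, and the mean of Dlk1 is low in the Irx2 and Zeb2 groups. The mean of Dlk1 is also low in the Trh group, but 77.3% of the pDR cells of that group had a Dlk1 read, so no order is read from it. Magel2 is highest in the Zeb2 group, and the mean of Ndn is lower on pDR plates in every group shown for both dissections.

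Dlk1, Asb4 and Mkrn3 were then read cell by cell. Of the 999 cells, 441 or 44.1% (41.0 to 47.3%) had a read of none of these genes, 241 had Dlk1 alone, 61 had Asb4 alone, 170 had Dlk1 with Asb4, and 49 or 4.90% (3.65 to 6.43%) had all of them. Of the 294 cells with Asb4, 74.5% also had Dlk1, against 35.5% of cells without it, and the share was higher with Asb4 on 13 of 14 plates. In the Trh group 33 of 132 cells, or 25.0% (17.9 to 33.3%), had all of Dlk1, Asb4 and Mkrn3 and 3 cells had none, whereas 119 of 150 cells with Zeb2 and 128 of 159 cells of the Irx2 group had none. Magel2 went the other way. It was found in 73.6% of cells with Dlk1 and 86.6% of cells without it, and the share was lower with Dlk1 on 15 of 16 plates.

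Ndn was at or near 0 in a small set of cells, apart from the rest, whose levels were spread. The lowest of the other cells had 51.2 CPM, and the 5th percentile of Ndn over all cells was 487 CPM, against a median of 2070 CPM. In 29 cells it had no read and in 4 it had 1 read, while the next lowest cell had 25 reads and the 966 others a median of 1708.5. The 33 cells with at most 1 read, 3.30% (2.28 to 4.61%), were a group chosen after the values were seen. They had a median of 945205 reads on genes (120692 to 2071950) against 823510 in the others, and medians of 9297 and 9557 detected genes. They came from 14 of 16 plates, with at most 5 on a plate, and made up 1.38% (0.377 to 3.49%) of pDR cells and 4.09% (2.76 to 5.82%) of the others. Of the other genes of the same chromosome 7 cluster, Snrpn had a mean of 1848 CPM in the cells without Ndn and 1723 CPM in the rest, and Magel2, the neighbour of Ndn, was at 24.8 and 18.6 CPM, with a read in 30 of the 33 cells. Mkrn3 was at 0.497 and 3.50 CPM, with a read in 3.03% (0.0767 to 15.8%) and 8.80% of cells, Dlk1 at 25.3 and 77.6 CPM, and Asb4 at 36.2 and 85.8 CPM. All comparisons of these 33 cells with the rest pool plates and dissections, and 29 of the 33 came from the DR and MR dissection. Over the plates of that dissection Mkrn3, Dlk1 and Asb4 averaged 1.46, 52.1 and 36.8 CPM. The part of dissection in these differences was not tested. The 5 endothelial genes summed to 8.26 CPM in the cells without Ndn and 0.675 CPM in the rest, which was not tested further. Peg3 was at 2313 and 2224 CPM and Tph2 at 8439 and 9648 CPM. Irx2 reads were found in 33.3% (18.0 to 51.8%) of the cells without Ndn and 15.8% of the rest. Of 79 genes with a mean between 1000 and 4000 CPM, 42 had no cell with at most 1 read, and only Maob, with 48 such cells, and Ndn had 5 or more. Maob, which breaks down monoamines, was singled out after its values were seen. A level under 5% of the gene's median was found in 37 cells for Ndn, 9 for Meg3, 10 for Grb10, 1 for Peg3 and 0 for Snrpn.

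Over the 999 cells the imprinted genes were weakly correlated with each other. Pearson's r of ln(CPM+1), after the mean of each plate was subtracted, lay between -0.18 and 0.26 over the 45 pairs, with a median of 0.01, and reached 0.2 in size for 2 pairs, Asb4 with Mkrn3 (0.26) and Meg3 with Peg3 (0.20). Dlk1 with Magel2 was the lowest (-0.18). The 4 genes of the Prader-Willi cluster, Snrpn, Ndn, Magel2 and Mkrn3, had r between -0.03 and 0.03 over their 6 pairs, and Dlk1 with Meg3, neighbours on chromosome 12, had 0.15. These values are descriptions, since cells share plates and depth, and r with the log of the number of reads was 0.26 for Snrpn, 0.18 for Grb10 and 0.11 or less in size for the rest.

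**Figure D5:**
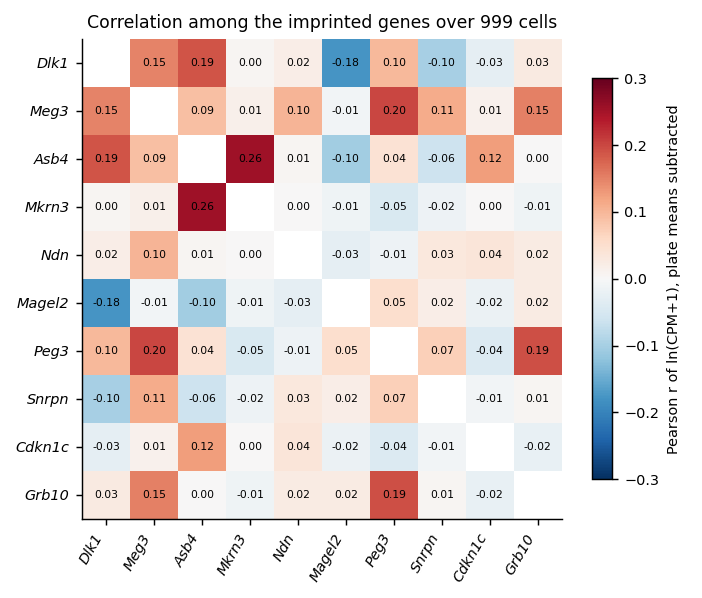
Pearson correlation of ln(CPM+1) between each pair of the 10 imprinted genes over the 999 cells, with plate means subtracted, as colour and number. Only Asb4 with Mkrn3 and Meg3 with Peg3 reach 0.20, and the pairs among Snrpn, Ndn, Magel2 and Mkrn3 lie between -0.03 and 0.03.

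Some of the genes were more like genes outside the list, among the 8087 with a mean of at least 10 CPM. Meg3 was most like Snhg11 (r = 0.83), Gm26917 (0.71) and Malat1 (0.65), the first and last of which are long noncoding RNAs. Asb4 was most like Fam19a2 (0.70), Trh (0.61) and Pcsk6 (0.55), and most unlike Grm7 (-0.53), a metabotropic glutamate receptor. Dlk1 was most like Calcr (0.42), the calcitonin receptor, Sema5a (0.39) and Nell1 (0.36), and most unlike Nr2f2 (-0.37), a nuclear receptor. Peg3 went with Rtn3 (0.60), Wdr6 (0.58) and Disp2 (0.55), and Snrpn with Cfl1 (0.56), Uqcrc1 (0.49) and Slc25a4 (0.49), the last 2 being mitochondrial proteins. Grb10 was most like Nisch (0.37), Prdx2 (0.35) and Chn1 (0.35). For Mkrn3 (Prph, 0.28; Trh, 0.27; Pcsk6, 0.27), Magel2 (Camkv, 0.25; C1ql3, 0.24; Pter, 0.24), Ndn (Ddc, 0.19; Atp6v1e1, 0.18; Ids, 0.18) and Cdkn1c (Trh, 0.12; Asb4, 0.12; Gpt2, 0.12) no gene reached 0.3.

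Other imprinted genes give the background. Of 54 further genes listed, 53 are in the table, 34 had a read in over 50% of cells, and 5 were listed at 0, H19, Igf2, Phlda2, Pon3 and Snurf, the first 4 named after their values were seen. A count of 0 of 999 cells allows, by Clopper-Pearson, a share of up to 0.369% of cells with a counted read. This bound says nothing of Snurf. On GENCODE M21 100% of its exon bases are shared with Snrpn on the same strand, so reads there could not be counted for Snurf alone. Igf2 shares 64.5% of its exon bases with other genes, so its bound is uncertain. The 5 with the highest CPM were, per kilobase of exon, Nap1l5 at 1543, Ddc, which makes serotonin from its precursor, at 650, Cd81 at 390, Impact at 196 and Gnas at 85.6 CPM per kilobase. On that scale Nnat (121) and Blcap (99.5), the latter named after its values were seen, were above Gnas. Of the 37 tested, 2 were called higher in the pDR, Calcr (86.9 against 40.4 CPM) and Kcnk9 (206 against 102 CPM), the latter at the threshold with a log2 ratio of 1.00, and 1 lower, Nnat (96.0 against 288 CPM), beside 3.39% and 2.12% of all tested genes. None of the 37 was called in Gad positive cells, where 0.748% of all tested genes were called higher and 0.468% lower, or in Slc17a8 positive cells, with 0.725% and 0.413%. Slc22a18 was called higher in Trh positive cells (7.87 against 2.87 CPM), with 1.32% of all tested genes higher and 2.95% lower, and Calcr lower in Irx2 positive cells (8.86 against 52.7 CPM), with 0.475% and 1.91%. With 37 genes, these counts of 0 or 1 are near those shares. In Zeb2 positive cells, where 2.03% of all tested genes were called higher and 6.35% lower, Nnat was called higher (565 against 191 CPM) and Rasgrf1 (243 against 921 CPM), Zdbf2 (29.4 against 120 CPM), Slc22a18 (0.0933 against 3.71 CPM), Sfmbt2 (2.88 against 7.53 CPM) and Kcnk9 (56.1 against 114 CPM) were called lower, the last of these named after its values were seen. Calcr lies in the same domain of chromosome 6 as Asb4, and both were called higher in the pDR and lower in Irx2 positive cells, but Calcr was not called in Gad, Trh, Slc17a8 or Zeb2 positive cells.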

How the data were processed

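The authors aligned the reads to mm10 with STAR 2.6.1a, counted them per gene with HTSeq 0.11.2 in unstranded mode, left out Y-linked genes, and deposited the values as CPM, scaled to the same total in each cell and not log-transformed. The version of their annotation is not given in the sources used here. Every value was a whole number of reads within 0.001, so counts were recovered. The table holds 999 of 1536 labelled cells, with no identical columns, and the other 537 were not analysed here. All 999 passed 300 genes, 50000 reads and 1 read of Tph2, and singly sorted cells were not searched for doublets.

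Coordinates and exon lengths come from GENCODE M21 (GRCm38). Contrasts were computed with Python 3.11.15, NumPy 2.4.6, SciPy 1.17.1 and pandas 2.3.3, and figures drawn with matplotlib 3.10.9. Named are the 10 genes, the markers, the 5 most abundant other imprinted genes, up to 5 called per comparison, and for each gene the 3 most like genes and, below an r of -0.3, the most unlike. The genes, the marker lists and the comparisons were chosen with earlier results of these data known. Simulated data held 12834 genes, 200 of them changed by 2 on the log2 scale. The contrast for Trh called 100% of genes raised, 91% of genes lowered and 0% of the rest. Smaller changes were not simulated. Beyond counting noise, every simulated gene had the same relative spread between cells, smaller than that of Mkrn3, Asb4 or Dlk1, and no plate effect. These rates therefore do not carry over to genes with reads in few cells.

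Alternatives were pseudocounts of 0.1 and 10 CPM, positivity from 5 reads or 10 CPM, thinning, 3 or 10 cells per kind, pooled plates, ln(CPM+1), 1 dissection or 1 plate less, stricter filters of 100000 reads and 2000 genes, and a threshold of 0.585.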

Additional observations from a re-analysis of the deposited data

How the results depend on the processing

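The calls of Asb4 held under every alternative in the 5 marker comparisons, with log2 ratios between 2.70 and 5.55 for Gad and between -6.49 and -1.04 for Zeb2. Each call of Mkrn3 was lost under at least 1 alternative. With a pseudocount of 10 CPM or with mean ln(CPM+1), 1 gene and not 2 passed the fold in both Gad and Slc17a8 positive cells, Mkrn3 being lost. In Gad positive cells it was also lost on DR and MR plates alone and among cells without Trh reads, which was added after seeing the data, leaving 1 gene each time. On those plates alone it was lost in Slc17a8 positive cells too (-0.60), and between dissections with a pseudocount of 10 CPM (0.54) and ln(CPM+1) (0.62). Leaving out 1 plate at a time gave between 1 and 2 genes for Gad, and Mkrn3 was lost without plate 12, 25, 40, 51, 57, 63 or 64. The same gave 2 genes for Slc17a8, 3 for Trh and Irx2, and between 3 and 4 for Zeb2 and for the dissections. Between dissections, among cells with Slc17a8 and no other marker, 1 gene passed the fold, and the log2 ratio of Mkrn3 reversed to -0.81, while that of Asb4 was 0.46. Dlk1 no longer passed the fold between dissections in Gad positive cells alone (0.59) or without cells of Zeb2 or Irx2 reads (0.59), nor for Trh with pooled plates or ln(CPM+1), nor for Irx2 on the pDR plate alone (-0.36). In Trh positive cells Mkrn3 was lost with a pseudocount of 10 CPM and with positivity from 10 CPM, as in Irx2 positive cells, where ln(CPM+1) also lost it, and Magel2 in Zeb2 positive cells with a pseudocount of 10 CPM (0.78). The cause was not tested. The r of Asb4 with Mkrn3 stayed between 0.23 and 0.33. Over the 8087 genes of at least 10 CPM, and not 12834, the shares called higher and lower were 0.420% and 0.420% for Gad, 0.841% and 1.79% for Trh, 0.581% and 0.297% for Slc17a8, 1.29% and 4.29% for Zeb2, 0.309% and 1.16% for Irx2, and 2.82% and 1.21% between dissections. Over the 25522 genes in at least 3 cells they were between 0.282% and 1.84%, and between 0.208% and 3.22%. The marker comparisons were made within plates. The dissections could not be compared in pairs, because the labels name no animals and plates belong to 1 dissection each. Zeb2 had no pDR plate with 5 positive cells, so that alternative gave no value. Cdkn1c and Mkrn3 rest on 33 and 86 cells with a read.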
